A study of Rattus norvegicus with 42 samples.

Results

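The genes described here encode the steps that take glucose into a retinal cell, break it down to pyruvate, exchange lactate across the membrane and admit pyruvate to the mitochondrion. They were chosen by symbol, with no measured value in the rule: 36 genes of the 32623 in the deposited count table, and all 36 were found and passed the filter on low counts. RNA was sequenced from the retinas of adult Rattus norvegicus, whose strain and sex the labels do not give. The 6 groups were untreated controls (5 libraries), animals exposed to 15000 lux for 24 h (light damage, 7), animals given an intravitreal injection of vehicle (5) or of cerium oxide nanoparticles at 1 mM (nanoceria, 4), and animals given either injection together with the light exposure (vehicle plus light, 5, and nanoceria plus light, 5). The labels name no transgene and describe each library as a biological replicate. Of 42 labelled samples 31 were analysed here, and the other 11 had no column of counts. The purpose of the series was to examine how nanoceria affects the retina under damaging light.

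Glycolysis splits glucose into pyruvate, and the regulated steps are those of hexokinase, phosphofructokinase and pyruvate kinase. The retina is known for aerobic glycolysis, in which photoreceptors turn much of their glucose into lactate although oxygen is present, and lactate leaves and enters cells through monocarboxylate transporters held at the membrane by basigin. Pyruvate that is not made into lactate passes the mitochondrial pyruvate carrier and is oxidised by pyruvate dehydrogenase, which the pyruvate dehydrogenase kinases switch off.

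Total counts per library ran from 25158407 to 182162368, and the lowest belonged to light damage 1. The 2 libraries light damage 4 and 7 were near-identical (chi-square per degree of freedom over genes 10.98), as were vehicle 4 and 7 (4.55). Pairs within a group that held light damage 1 gave 1516 to 1876, and the remaining pairs 93.4 to 617. The near-identical libraries were kept separate. Summing each pair gave 15, 16 and 10 called members in the 3 light comparisons (19.7%, 13.3% and 12.9% of all genes), against 15, 15 and 10. Each group held 1 to 4 libraries with high Y-linked transcripts. Rod genes, which define the retina label, had a summed level that was never below 5678 CPM (counts scaled to a common library size). Levels below are CPM on TMM-scaled library sizes, listed in the order of the library numbers: control 1, 2, 4, 5 and 6, vehicle 1, 2, 3, 4 and 7, vehicle plus light 1, 2, 3, 4 and 6, nanoceria 1, 2, 3 and 5, and nanoceria plus light 1 to 5.

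Light exposure was accompanied by lower levels of many of these genes, whether the eye had been left uninjected or had received vehicle or nanoceria. Without injection, 15 of the 36 members passed edgeR's quasi-likelihood test at a Benjamini-Hochberg adjusted p under 0.05, 2 higher and 13 lower, where 22.5% of the 18094 genes tested were called in either direction (11.9% higher and 10.6% lower). After vehicle, 15 members passed, 1 higher and 14 lower, against 16.8% of all genes (9.67% higher and 7.17% lower). After nanoceria, 10 members passed, 1 higher and 9 lower, against 13.9% of all genes (8.15% higher and 5.78% lower). The median log2 change of the members was -0.26, -0.25 and -0.21 in the same order, and that of all genes was -0.01, 0.02 and 0.04. The split of calls moved with the scaling: by library size alone the members were 2 higher and 11 lower without injection, 2 and 11 after vehicle and 1 and 6 after nanoceria, and with DESeq2 size factors they were 1 and 13 after nanoceria. Over all genes the split was 2147 higher and 1927 lower without injection (2371 and 1100 by library size alone), 1749 and 1297 after vehicle (2434 and 688), and 1474 and 1046 after nanoceria (1115 and 1306 with DESeq2 size factors). In bulk tissue, fewer cells of a type and less RNA per cell cannot be told apart.

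**Figure D1:**
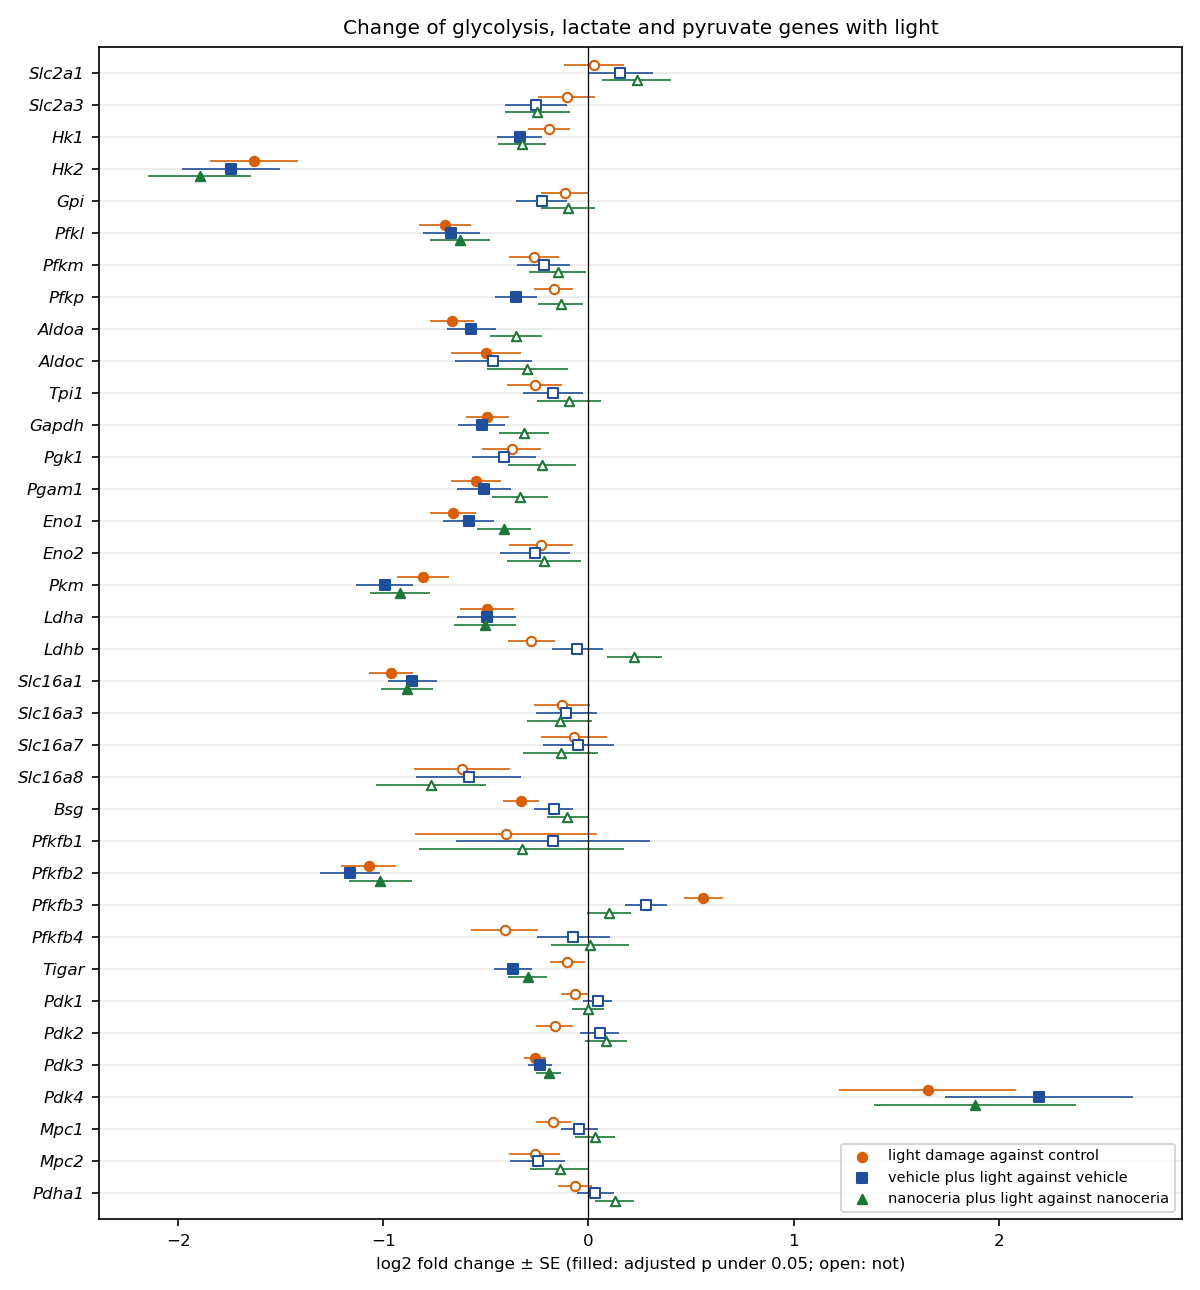
Log2 fold change of each of the 36 members (points, with SE bars) with light against the matching group without light, in uninjected, vehicle-injected and nanoceria-injected eyes. Filled points passed the adjusted p threshold. Hk2 lay farthest to the left in every comparison, and Pdk4 farthest to the right.

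The same 8 members were lower in all 3 light comparisons, namely Hk2, Pfkl, Eno1, Pkm, Ldha, Slc16a1, Pfkfb2 and Pdk3, which is 22.2% of the members beside 3.70% of all genes tested. Pdk4 was the 1 member higher in all 3 (2.78% of the members, beside 5.08% of all genes). Another 18 members passed in none of the 3, 5 passed in 1 and 4 in 2, and no share of all genes was computed for these counts. Hk2, Pfkl, Pkm, Slc16a1, Pfkfb2 and Pdk4 were called in all 3 comparisons under every alternative run, also without such a share over all genes. The groups did not overlap for 2 members above and 6 below without injection (6.47% and 4.79% of all genes), for 1 and 13 after vehicle (7.65% and 6.01%), and for 0 and 11 after nanoceria (7.11% and 5.54%). Together the 36 genes held a median of 1.61% of all counts in control and 1.21% in light damage libraries, 1.51% in vehicle and 1.26% in vehicle plus light, and 1.52% in nanoceria and 1.17% in nanoceria plus light.

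**Figure D2:**
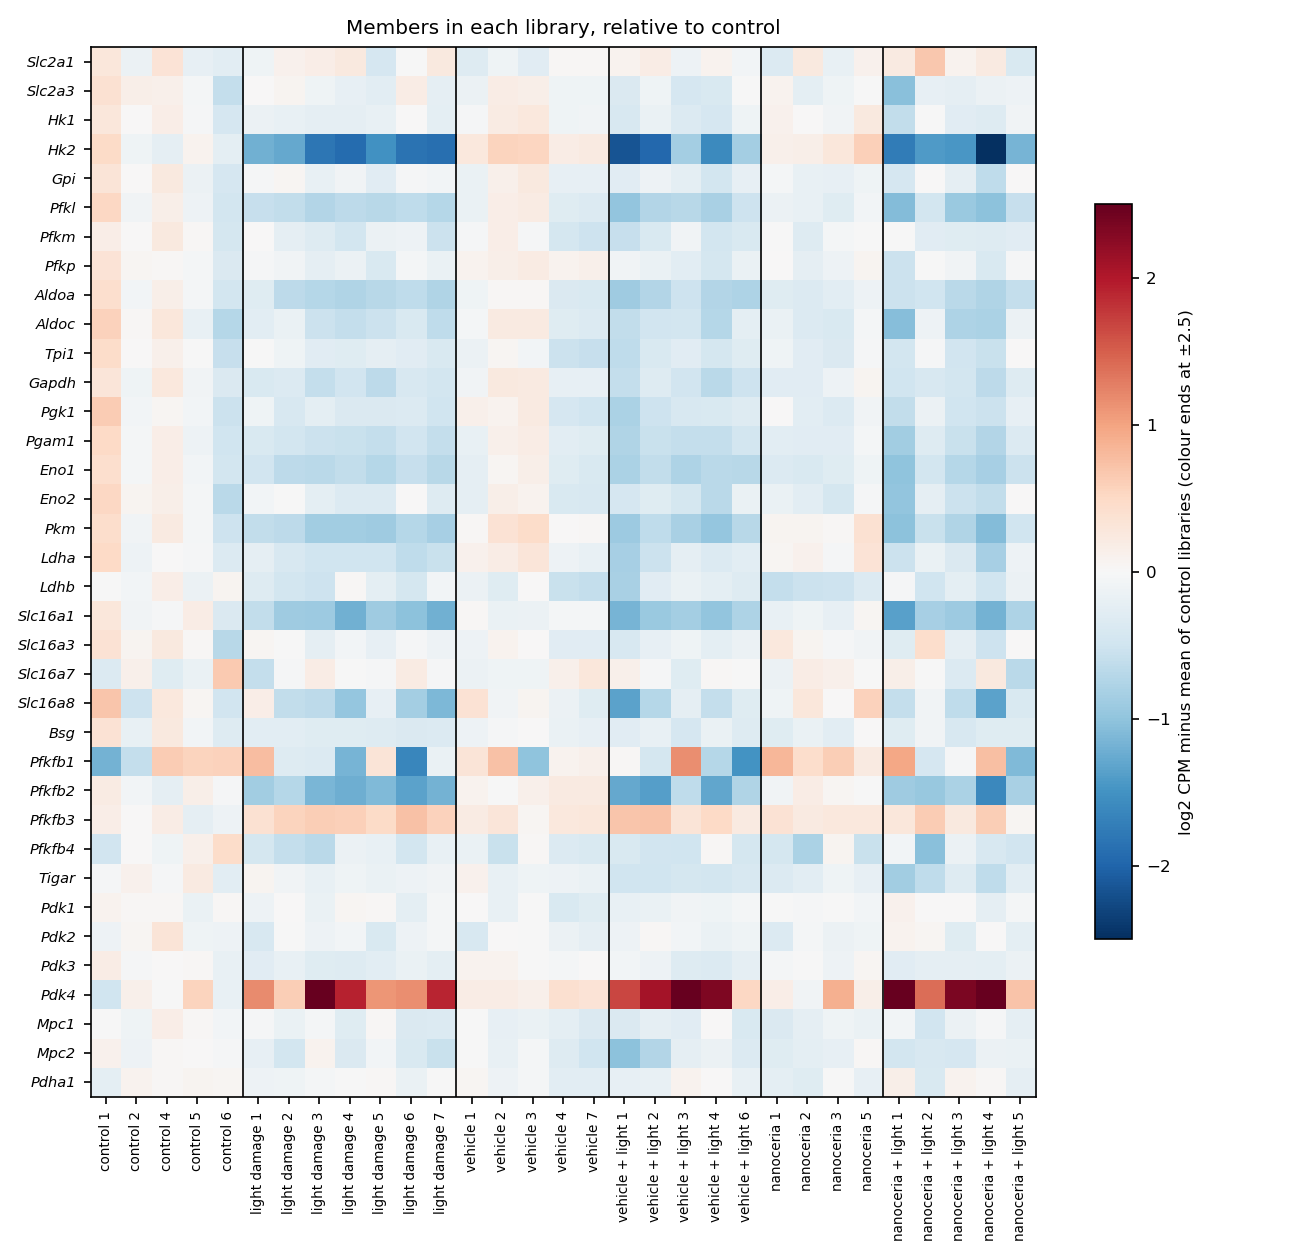
Log2 CPM of the 36 members in each of the 31 libraries, minus the mean of the control libraries. Colours end at -2.5 and 2.5. Hk2, Slc16a1 and Pfkfb2 were below the control mean in every library exposed to light, and Pdk4 was above it.

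The sequence just before the start of the gene is shown for Hk2, Pfkfb2 and Slc16a1, the 3 members with the lowest log2 change without injection, and for Pdk4, the member with the highest. RefSeq's tables for GRCr8 held windows for 34 of the 36 members, 38 windows in all, and each was taken as the 250 bases before the start, 5′ to 3′ on the gene's strand. Motif matches on either strand are in capitals. The motifs were chosen after the values had been seen.
Hk2, chr4:116841276-116841525, minus strand: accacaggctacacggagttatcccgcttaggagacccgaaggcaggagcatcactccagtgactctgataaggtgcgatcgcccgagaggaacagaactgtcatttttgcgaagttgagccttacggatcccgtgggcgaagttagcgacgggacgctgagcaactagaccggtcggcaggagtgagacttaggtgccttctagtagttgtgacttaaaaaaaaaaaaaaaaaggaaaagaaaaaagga
Pfkfb2, chr13:44726972-44727221, minus strand: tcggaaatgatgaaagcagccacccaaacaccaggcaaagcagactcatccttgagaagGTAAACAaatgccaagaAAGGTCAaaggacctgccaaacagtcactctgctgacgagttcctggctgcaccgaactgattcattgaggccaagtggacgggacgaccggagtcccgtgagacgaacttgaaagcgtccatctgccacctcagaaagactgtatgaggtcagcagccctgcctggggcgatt
Slc16a1, chr2:194812410-194812659, plus strand: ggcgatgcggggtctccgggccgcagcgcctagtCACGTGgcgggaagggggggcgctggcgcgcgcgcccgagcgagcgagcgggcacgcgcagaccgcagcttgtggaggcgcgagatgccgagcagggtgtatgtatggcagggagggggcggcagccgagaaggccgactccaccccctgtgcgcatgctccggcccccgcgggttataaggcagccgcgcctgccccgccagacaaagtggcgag
Pdk4, chr4:34568330-34568579, minus strand: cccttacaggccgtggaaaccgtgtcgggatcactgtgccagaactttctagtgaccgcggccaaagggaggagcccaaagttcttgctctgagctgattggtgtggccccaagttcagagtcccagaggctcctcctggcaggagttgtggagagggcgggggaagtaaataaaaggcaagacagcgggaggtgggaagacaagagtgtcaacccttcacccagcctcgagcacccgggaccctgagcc
Of the motifs searched, TAATCC, the core bound by the photoreceptor factors Crx and Otx2, was in the windows of 1 member, Pgam1, beside 6.34% of the 33469 windows of all genes. CACGTG, an E-box that itself holds the hypoxia core ACGTG, was found for 5 members (5.59% of all windows), among them Slc16a1 at position -216 before the start, Ldha, Pfkfb3, Pdk2 and Bsg. ACGTG was found for 15 members (16.6% of all windows). AAGGTCA, a nuclear receptor element, was found for Pfkfb2 at -174 and for Slc16a8 (3.99% of all windows), and GTAAACA, a forkhead element, for Pfkfb2 at -191 (3.21%). Hk2 and Pdk4 had no match in these 250 bases, which says only that these letters are not there.

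Glucose enters through the transporters Slc2a1 and Slc2a3 and is trapped in the cell by hexokinase. Of these genes, Hk2, the hexokinase isozyme found in photoreceptors (ENSRNOG00000006116), changed most. In control libraries Hk2 stood at 666, 446, 409, 510.0 and 403 CPM, and in light damage at 127 at the lowest, 137 at the median and 209 at the highest. After vehicle it was at 574, 701, 693, 544 and 555 CPM, and with light at 107, 123, 265, 158 and 265. After nanoceria the level was 524, 528, 586 and 720.2 CPM, and with light 142, 179, 174, 83.9 and 214. Every library exposed to light was below every library without light, and nanoceria plus light 4 was the lowest of the 31. On the log2 scale Hk2 changed by -1.63 ± 0.21 without injection, -1.74 ± 0.24 after vehicle and -1.90 ± 0.25 after nanoceria (SE; adjusted p 2.18e-06, 6.23e-06 and 5.22e-06), that is, it fell by 67.7%, 70.1% and 73.1%.

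Hk1, the isozyme that most neurons carry (ENSRNOG00000046891), had smaller log2 differences. Its level was 178, 146, 162, 142 and 108 CPM in control and 122 at the lowest, 127 at the median and 145 at the highest in light damage libraries. It was 142, 168, 174, 135 and 137 CPM after vehicle and 111, 129, 115, 109 and 135 with light. It was 155, 146, 137 and 172 CPM after nanoceria and 94.3, 143, 119, 116 and 137 with light. The groups overlapped in each of the 3 comparisons. The log2 differences of Hk1 were -0.19 ± 0.10 without injection, -0.34 ± 0.11 after vehicle and -0.32 ± 0.12 after nanoceria (SE; adjusted p 0.2, 0.0368 and 0.0675), and the call after vehicle was lost in 8 of 19 alternatives, among them without vehicle 2 or 3, without vehicle plus light 1, 3 or 4, and with library size alone.

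The log2 ratio of Hk2 to Hk1 within a library also holds the lengths of both transcripts, so only its changes were read. It lay at 1.33 to 1.91 in control and -0.12 to 0.67 in light damage libraries, at 1.99 to 2.06 and -0.08 to 1.21 after vehicle, and at 1.75 to 2.09 and -0.47 to 0.64 after nanoceria. The ratio was lower in each comparison without overlap, with log2 differences of -1.46, -1.50 and -1.62 (2-sided exact permutation tests, Benjamini-Hochberg adjusted over 65 tests, p = 0.0164, 0.0287 and 0.0287). Neither glucose transporter passed the test, with log2 differences of 0.03, 0.15 and 0.23 for Slc2a1. Those of Slc2a3, the neuronal transporter, were -0.11, -0.26 and -0.25.

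Among the genes from glucose phosphate to the triose phosphates, Pfkl and Aldoa fell. Pfkl encodes the liver-type subunit of phosphofructokinase, the committed step of glycolysis (ENSRNOG00000001214). It stood at 603, 400.3, 471, 391 and 309.7 CPM in control and at 254 at the lowest, 269 at the median and 283 at the highest in light damage libraries. It was at 377, 473, 490.4, 346 and 336 CPM after vehicle and 214, 257, 264, 243 and 296 with light. It was at 384, 373, 346 and 406 CPM after nanoceria and 200.2, 308, 223, 208 and 285 with light. No library exposed to light reached the level of its matching group. Log2 changes were -0.70 ± 0.13 without injection, -0.67 ± 0.14 after vehicle and -0.62 ± 0.15 after nanoceria (SE; adjusted p 0.00016, 0.000983 and 0.00393), and Pfkl fell by 38.4%, 37.1% and 35.1%.

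The other phosphofructokinase subunits had smaller log2 differences. The muscle-type subunit Pfkm was at -0.27, -0.22 and -0.15 on the log2 scale and passed in no comparison. The platelet-type subunit Pfkp passed after vehicle, where it was lower (-0.35 ± 0.10, SE, adjusted p = 0.0178), and that call was lost with library size alone and without vehicle plus light 4. The ratio of Pfkm to Pfkl within a library rose by 0.41 without injection and 0.45 after vehicle (exact permutation tests, adjusted p = 0.0274 and 0.0287), and differed by 0.49 after nanoceria without passing (adjusted p = 0.119). Pfkp to Pfkl rose by 0.51 without injection and 0.50 after nanoceria (adjusted p = 0.0164 and 0.0287, exact), with 0.30 after vehicle (adjusted p = 0.184). Aldoa, the main aldolase of muscle and many other tissues, fell by 36.9% without injection and 32.7% after vehicle (adjusted p 4.54e-05 and 0.00099), and its log2 difference after nanoceria was -0.35 ± 0.13 (SE, adjusted p = 0.0602). The brain aldolase Aldoc passed without injection (-0.50 ± 0.17, adjusted p = 0.0352), a call lost in 12 of 21 alternatives, among them without control 1, 2 or 4 or light damage 3, 4, 5 or 7. Glucose phosphate isomerase, Gpi, and triose phosphate isomerase, Tpi1, passed in none of the 3, with log2 differences from -0.26 to -0.09 for Tpi1 and from -0.23 to -0.10 for Gpi.

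In the stretch from glyceraldehyde phosphate to pyruvate, Eno1 and Pkm fell in all 3 light comparisons. Pkm encodes pyruvate kinase, the step that releases pyruvate, and the table does not separate its splice forms (ENSRNOG00000011329). Control libraries held Pkm at 2715, 1892, 2339, 1945 and 1413 CPM and light damage libraries at 1088 at the lowest, 1135 at the median and 1314 at the highest. After vehicle Pkm was at 2063, 2599, 2774, 2033 and 2064 CPM, and with light at 1072, 1289.6, 1153, 1028 and 1253. After nanoceria it was at 2124, 2123, 2059 and 2633 CPM, and with light at 992, 1359, 1194, 953 and 1421. Each group with light lay wholly below its match. Pkm changed by -0.81 ± 0.13 without injection, -0.99 ± 0.14 after vehicle and -0.92 ± 0.15 after nanoceria (log2 ± SE; adjusted p 2.55e-05, 7.77e-06 and 5.69e-05), which is to say that it fell by 42.8%, 49.8% and 47.03%.

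Eno1, the enolase of most tissues (ENSRNOG00000017895), stood at 2623, 1889, 2195, 1853 and 1419 CPM in control and 1189.5 at the lowest, 1242 at the median and 1394 at the highest in light damage libraries. It stood at 1682, 2011, 2178, 1583 and 1511 CPM after vehicle and 1129.8, 1274, 1152, 1219 and 1207 with light. It stood at 1537, 1496, 1576 and 1824 CPM after nanoceria and 975, 1431, 1186, 1099 and 1354 with light. The groups were apart in each comparison, with control 6 closest to the light damage libraries and nanoceria plus light 2 closest to the nanoceria libraries. Eno1 changed by -0.66 ± 0.11 without injection, -0.58 ± 0.12 after vehicle and -0.41 ± 0.13 after nanoceria (log2 ± SE; adjusted p 8.39e-05, 0.00121 and 0.0333). The call after nanoceria was lost in 9 of 18 alternatives, 6 of them a left-out library (nanoceria 1, 3 or 5, or nanoceria plus light 1, 3 or 4), with an adjusted p of up to 0.13. The neuronal enolase Eno2 passed in no comparison (log2 -0.23, -0.26 and -0.22). Its ratio to Eno1 rose by 0.44 without injection and 0.32 after vehicle (adjusted p = 0.0164 and 0.0485, exact permutation), and differed by 0.17 after nanoceria (adjusted p = 0.361).

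Gapdh, the dehydrogenase often taken as a loading reference, fell by 28.98% without injection and 30.2% after vehicle (adjusted p 0.000893 and 0.00179). Its log2 difference after nanoceria was -0.31 ± 0.12 (SE, adjusted p = 0.0865), although the 2 groups did not overlap. A copy listed as Gapdh-ps2 averaged 50.5 CPM beside 1132 for Gapdh, so some reads may be split between them. The phosphoglycerate mutase Pgam1 fell by 31.6% without injection and 29.8% after vehicle (adjusted p 0.0012 and 0.00683), with a log2 difference of -0.33 ± 0.14 after nanoceria (SE, adjusted p = 0.113). Phosphoglycerate kinase, Pgk1, was at log2 -0.37, -0.41 and -0.23 and passed in none of the 3 (adjusted p 0.0624, 0.0731 and 0.43).

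Of the lactate genes, Slc16a1, a monocarboxylate transporter that carries lactate in either direction (ENSRNOG00000019996), fell most. Its control level was 384, 299, 311, 362 and 246 CPM and its light damage level 138 at the lowest, 169 at the median and 208 at the highest. Vehicle libraries held 322, 282, 288, 307 and 304 CPM, and vehicle plus light libraries 141, 166, 176, 160.5 and 185. Nanoceria libraries held 279.9, 293, 274 and 329 CPM, and nanoceria plus light libraries 123, 178, 168, 140.2 and 186. The highest library with light, light damage at 208 CPM, was below the lowest without it, control 6 at 246 CPM. Slc16a1 changed by -0.96 ± 0.11 without injection, -0.86 ± 0.12 after vehicle and -0.88 ± 0.12 after nanoceria (log2 ± SE; adjusted p 1.81e-07, 6.47e-06 and 1.29e-05), a fall of 48.7%, 44.9% and 45.8%.

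Slc16a3, the transporter associated with lactate release from glycolytic cells (ENSRNOG00000036677), did not pass. It was at 43.04, 34.9, 39.5, 33.8 and 20.5 CPM in control and 28.7 at the lowest, 31.8 at the median and 34.4 at the highest in light damage libraries. The vehicle libraries were at 30.5, 35.5, 33.6, 27.5 and 27.3 CPM, and those with light at 25.2, 29.02, 30.8, 28.1 and 30.03. The nanoceria libraries were at 39.99, 34.8, 32.7 and 31.5 CPM, and those with light at 26.9, 45.2, 28.7, 23.4 and 33.5. All 3 pairs of groups overlapped, and the log2 differences of Slc16a3 were -0.13 ± 0.14 without injection, -0.11 ± 0.15 after vehicle and -0.14 ± 0.16 after nanoceria (SE; adjusted p 0.572, 0.706 and 0.64). Within a library the ratio of Slc16a3 to Slc16a1 rose without overlap, by 0.87, 0.76 and 0.73 on the log2 scale (exact permutation tests, adjusted p = 0.0164, 0.0287 and 0.0287). Slc16a7, the high-affinity transporter of neurons, passed in none of the 3 (log2 -0.07, -0.05 and -0.14). Slc16a8, the transporter of the basal face of the pigment epithelium, was at -0.62 ± 0.23, -0.58 ± 0.25 and -0.77 ± 0.27 (log2 ± SE; adjusted p 0.0569, 0.124 and 0.0558), beside pigment epithelium markers of which 5, 1 and 2 of 10 fell and none rose. The part of that tissue in the Slc16a8 values was not tested. Bsg, which encodes basigin, fell by 20.4% without injection (adjusted p 0.00648; 0.0501 when only those 2 groups were fitted) and was at log2 -0.17 after vehicle and -0.10 after nanoceria.

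**Figure D3:**
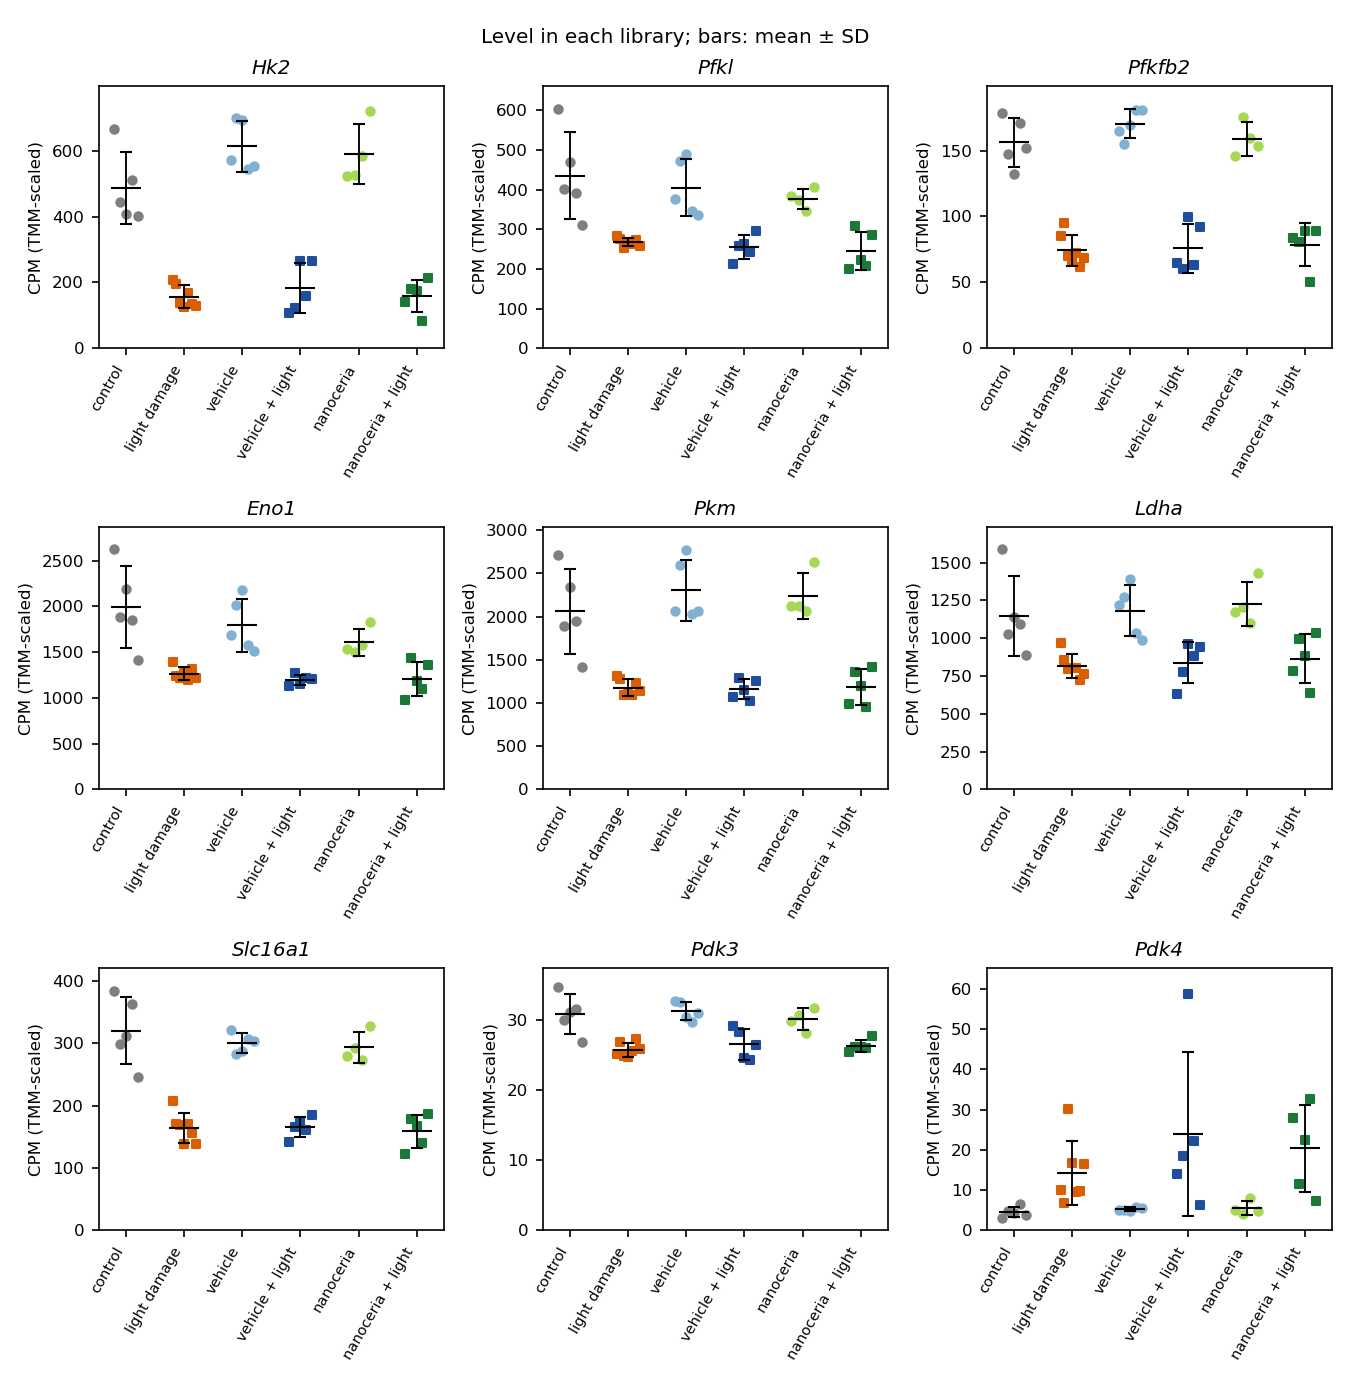
CPM of 9 members in each library by group (points), with the mean and SD of each group. The Hk2 and Slc16a1 points of the light groups lie wholly below those of the groups without light, and the Pdk4 points of the light groups are widely spread.

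Ldha and Ldhb encode the subunits of lactate dehydrogenase, the first favouring lactate and the other favouring pyruvate. Ldha (ENSRNOG00000013009) stood at 1590.0, 1028, 1138, 1097 and 890.3 CPM in control and 721 at the lowest, 803 at the median and 965 at the highest in light damage libraries. It stood at 1221, 1274, 1392, 1033 and 991 CPM after vehicle, against 630.4, 775, 961, 883 and 940.3 with light. It stood at 1173, 1207, 1100.0 and 1434 CPM after nanoceria, against 780.4, 998, 879.7, 635 and 1034 with light. Control 6 was within the range of the light damage libraries, and the groups of the other 2 comparisons were apart. Ldha changed by -0.50 ± 0.13 without injection, -0.50 ± 0.14 after vehicle and -0.51 ± 0.15 after nanoceria (log2 ± SE; adjusted p 0.00648, 0.0161 and 0.0233). The call after vehicle was lost without vehicle 3 or vehicle plus light 1, and the call after nanoceria was lost in 5 of 18 alternatives, among them without nanoceria 2 or 5 and without nanoceria plus light 1 or 4.

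Ldhb (ENSRNOG00000013000) stood at 292, 283, 330.2, 269 and 310.1 CPM in control and 207 at the lowest, 236 at the median and 302 at the highest in light damage libraries. Vehicle libraries gave 268, 241, 299, 202 and 197 CPM, and vehicle plus light 169, 244, 262, 251 and 237. Nanoceria libraries gave 197, 204, 207 and 233 CPM, and nanoceria plus light 289, 210.2, 249.8, 211 and 269. The groups overlapped in each light comparison, and the log2 differences were -0.28 ± 0.12 without injection, -0.05 ± 0.13 after vehicle and 0.22 ± 0.13 after nanoceria (SE; adjusted p 0.0865, 0.84 and 0.307). The within-library ratio of Ldhb to Ldha rose by 0.45 after vehicle and 0.73 after nanoceria, without overlap (exact permutation tests, adjusted p = 0.0287 and 0.0485), and differed by 0.19 without injection (adjusted p = 0.479).

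The Pfkfb genes encode bifunctional enzymes that make and remove the sugar bisphosphate that activates phosphofructokinase, and Tigar encodes a phosphatase that removes it. Pfkfb2 fell in all 3 light comparisons (ENSRNOG00000004162). Its levels were 178, 147, 132, 171 and 152 CPM in control and 61.8 at the lowest, 70.3 at the median and 95.2 at the highest in light damage libraries. They were 165, 155, 169, 181 and 181 CPM after vehicle and 64.4, 60.1, 99.9, 63.1 and 92.2 with light. They were 146, 176, 159.7 and 153 CPM after nanoceria and 83.8, 80.95, 89.3, 50.5 and 88.6 with light. The groups were apart each time, and nanoceria plus light 4 was again the lowest. Pfkfb2 changed by -1.07 ± 0.13 without injection, -1.16 ± 0.15 after vehicle and -1.01 ± 0.15 after nanoceria (log2 ± SE; adjusted p 8.47e-07, 1.68e-06 and 2.93e-05), a fall of 52.4%, 55.4% and 50.5%.

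Pfkfb3, the form with the strongest kinase activity (ENSRNOG00000018911), moved the other way without injection. It was at 44.04, 39.4, 44.1, 33.3 and 35.6 CPM in control and 51.03 at the lowest, 58.2 at the median and 64.8 at the highest in light damage libraries. The levels were 44.7, 47.96, 40.4, 46.8 and 47.2 CPM after vehicle and 62.8, 63.7, 48.7, 55.1 and 45.9 with light. The levels were 50.4, 45.3, 46.9 and 46.9 CPM after nanoceria and 47.5, 60.3, 46.2, 59.6 and 40.4 with light. Every light damage library was above every control, and the injected groups overlapped. Pfkfb3 rose by 47.4% without injection, a log2 change of 0.56 ± 0.10 (SE, adjusted p = 8.1e-05) that was called under every alternative. Its log2 differences were 0.28 ± 0.10 after vehicle (adjusted p = 0.0573; 0.0499 with a term for Y-linked transcripts) and 0.10 ± 0.11 after nanoceria (adjusted p = 0.626). The light response after vehicle did not differ from that without injection past the threshold (interaction -0.28 ± 0.14, SE, edgeR adjusted p = 0.873). The ratio of Pfkfb2 to Pfkfb3 fell by 1.63 without injection, 1.46 after vehicle and 1.12 after nanoceria on the log2 scale, without overlap (exact permutation tests, adjusted p = 0.0164, 0.0287 and 0.0485). Pfkfb1, the liver form, was at only 0.19 to 1.42 CPM over all libraries and passed in none of the 3 (log2 -0.40, -0.17 and -0.33). Nor did Pfkfb4, which was at log2 -0.41 without injection (adjusted p = 0.0732) and -0.07 and 0.01 after the injections.

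Tigar (ENSRNOG00000051816) fell with light in the injected eyes. It was at 25.5, 27.7, 25.4, 30.2 and 21.4 CPM in control and 22.7 at the lowest, 24.2 at the median and 27.2 at the highest in light damage libraries. After vehicle it was at 27.8, 22.7, 24.2, 23.7 and 23.02 CPM and with light at 18.4, 18.2, 19.1, 18.7 and 19.6. After nanoceria it was at 20.4, 21.5, 24.04 and 22.4 CPM and with light at 14.2, 16.7, 20.8, 16.7 and 21.5. The vehicle plus light libraries were all below the vehicle libraries, while the groups of the other 2 light comparisons overlapped. Tigar changed by -0.37 ± 0.09 after vehicle (log2 ± SE, adjusted p = 0.00499), a call kept under every alternative. After nanoceria the change was -0.30 ± 0.10 (adjusted p = 0.0383), lost in 9 of 18 alternatives, among them without nanoceria 2, 3 or 5 or nanoceria plus light 1, 2 or 4, and without injection it was -0.10 ± 0.08 (adjusted p = 0.442). The interaction of light with the vehicle injection was -0.27 ± 0.12 for Tigar (SE, edgeR adjusted p = 0.819).

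At the entry of pyruvate to the mitochondrion, Pdk4 rose and Pdk3 fell in all 3 light comparisons. Pdk4, a pyruvate dehydrogenase kinase known to be induced by fasting and fatty acids (ENSRNOG00000009565), was at 3.11, 4.79, 4.38, 6.42 and 3.86 CPM in control and 6.72 at the lowest, 9.98 at the median and 30.1 at the highest in light damage libraries. It was at 5.00, 4.97, 4.77, 5.83 and 5.59 CPM after vehicle and 14.02, 18.6, 58.8, 22.2 and 6.29 with light. It was at 4.94, 4.15, 8.10 and 4.86 CPM after nanoceria and 27.8, 11.5, 22.5, 32.7 and 7.19 with light. The light groups were above their matches except that nanoceria plus light 5 was below nanoceria 3, and vehicle plus light 3 was the highest of all libraries. Pdk4 was 3.15-fold higher without injection (log2 1.65 ± 0.43, SE, adjusted p = 0.00542), 4.58-fold after vehicle (2.20 ± 0.46, adjusted p = 0.001) and 3.69-fold after nanoceria (1.88 ± 0.49, adjusted p = 0.00946). Without vehicle plus light 3 the log2 change of Pdk4 after vehicle was 1.55 (adjusted p = 0.00736).

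Pdk3, another of the kinases (ENSRNOG00000012513), was at 34.7, 29.96, 31.01, 31.5 and 26.9 CPM in control and 24.6 at the lowest, 25.5 at the median and 27.2 at the highest in light damage libraries. The vehicle libraries gave 32.7, 32.5, 30.4, 29.6 and 30.9 CPM and those with light 29.2, 28.2, 24.5, 24.3 and 26.4. The nanoceria libraries gave 29.8, 30.7, 28.02 and 31.7 CPM and those with light 25.4, 26.1, 26.1, 26.00 and 27.6. Only the uninjected comparison overlapped, through control 6. The log2 changes of Pdk3 were -0.26 ± 0.05 without injection, -0.24 ± 0.06 after vehicle and -0.19 ± 0.06 after nanoceria (SE; adjusted p 0.00068, 0.00517 and 0.0352), falls of 16.6%, 15.1% and 12.6%. Scaling by library size alone ended all 3 calls of Pdk3, and the call after nanoceria was lost in 10 of 18 alternatives, among them without nanoceria 1, 2 or 5 or nanoceria plus light 1, 3 or 4.

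Pdk1 and Pdk2 did not pass in any light comparison, with log2 differences from -0.07 to 0.05 for Pdk1 and from -0.16 to 0.09 for Pdk2. Nor did the carrier subunits Mpc1 (-0.17, -0.04 and 0.03) and Mpc2 (-0.26, -0.25 and -0.14). Pdha1, the dehydrogenase subunit that the kinases phosphorylate, was at -0.07, 0.03 and 0.13, with a related gene, Pdha1l1, at 13.0 CPM on average beside 179 for Pdha1. The ratio of Pdk4 to Pdk2 rose by 1.59 without injection and 1.68 after vehicle (adjusted p = 0.0287 and 0.0287, exact permutation), with 1.56 after nanoceria (adjusted p = 0.107).

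Of the 13 isozyme and transporter ratios, 8 passed without injection, 8 after vehicle and 5 after nanoceria. The smallest unadjusted p that the exact tests could give was 0.00126 without injection and 0.00794 in the injected comparisons. With any 1 library left out no ratio passed after nanoceria, where the smallest unadjusted p was then 0.0179 to 0.0286, and 4 passed after vehicle without any 1 vehicle library. With the near-identical pairs averaged, 4 passed after vehicle and 3 after nanoceria. Ratios of Slc2a3 to Slc2a1, Aldoc to Aldoa, Pdk1 to Pdk2 and Mpc2 to Mpc1 passed in no comparison. Slc16a7 to Slc16a1 rose by 0.91 without injection and 0.82 after vehicle (adjusted p = 0.0485 and 0.0287, exact permutation).

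**Figure D4:**
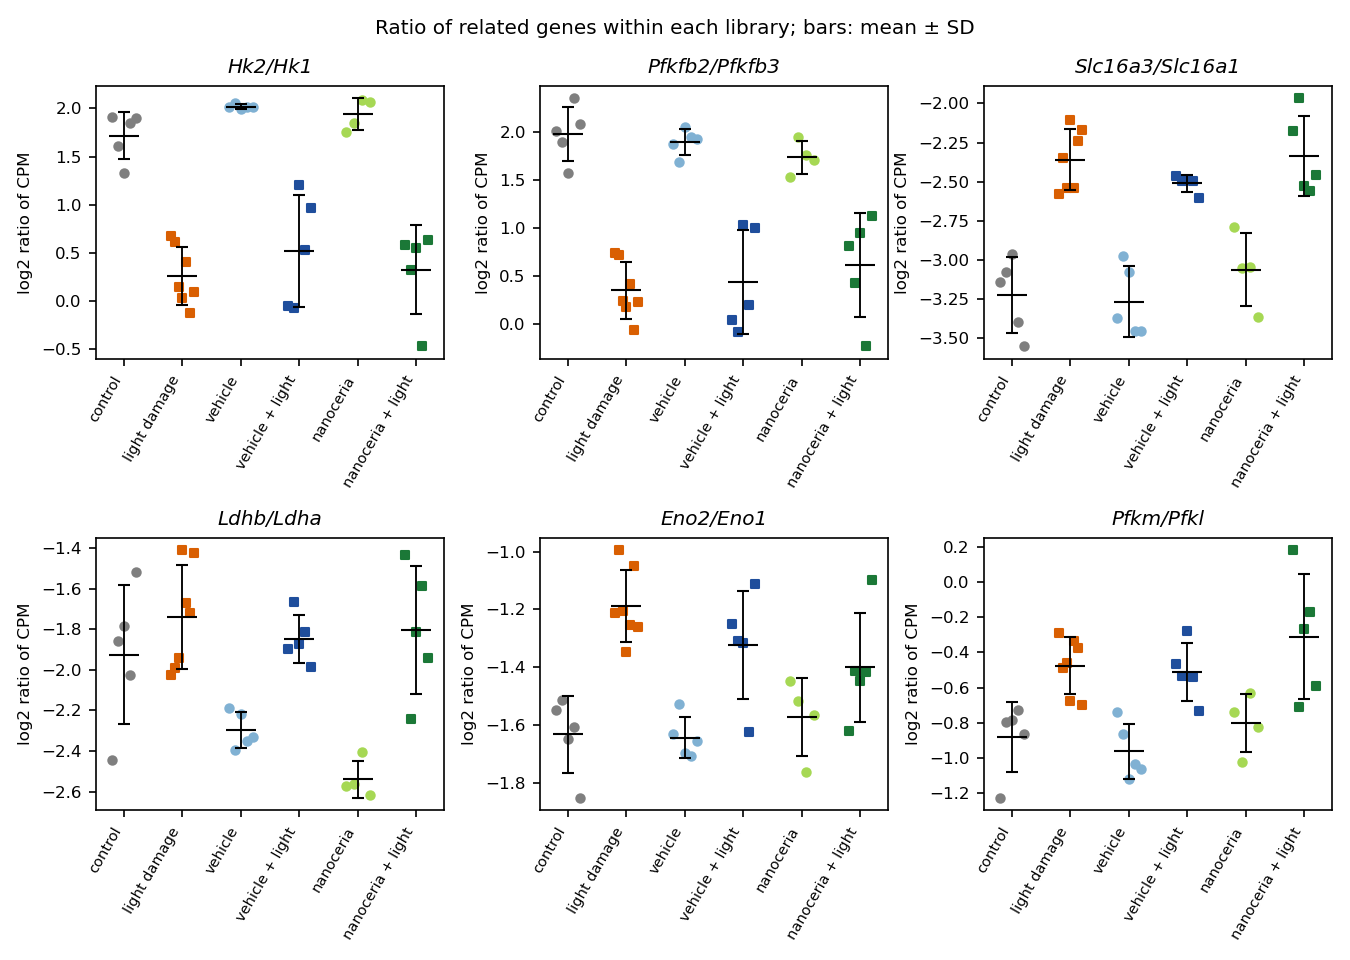
Log2 ratio of the CPM of 2 members within each library (points) by group, for 6 pairs of related genes, with group means. Hk2 to Hk1 and Pfkfb2 to Pfkfb3 were lower, and Slc16a3 to Slc16a1 higher, in every library with light than in its matching group.

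Rod genes were also lower with light. Of 17 rod genes tested, 16, 14 and 15 fell without injection, after vehicle and after nanoceria, and none rose. Over all genes 10.6%, 7.17% and 5.78% fell and 11.9%, 9.67% and 8.15% rose in the same order. Their summed level was 36474 to 69023 CPM in control and 11803 to 22314 in light damage libraries, 49075 to 60924 and 10219 to 23860 in the vehicle pair, and 45398 to 68019 and 5678 to 24967 in the nanoceria pair. The library lowest in Hk2 and Pfkfb2, nanoceria plus light 4, was also the lowest in the mean log2 CPM of rod genes, at 7.14. Of the markers of other cells, 3, 1 and 1 of 8 Mueller glia genes fell and 0, 1 and 1 rose. The summed level of these 8 genes was also lower with light, at 5127 to 6937 CPM in control and 3842 to 4562 in light damage libraries. It was 5091 to 6296 and 3934 to 4849 CPM in the vehicle pair, and 5348 to 5592 and 3637 to 5375 in the nanoceria pair, which overlapped. Of 10 cone genes, 1, 7 and 4 fell and 2, 2 and 1 rose. The sum of 14 bipolar, amacrine and ganglion cell genes overlapped in each pair (1462 to 2508 CPM in control and 1781 to 2386 in light damage). That of 5 endothelial genes was 399 to 549 CPM in control and 354 to 424 in light damage. It was 442 to 600 and 284 to 437 CPM in the vehicle pair, and 488 to 613 and 360 to 491 in the nanoceria pair. The summed level of 9 lens genes ran from 600 to 7282 CPM in control and 297 to 7147 in light damage libraries. It ran from 4375 to 27567 and 2419 to 5615 CPM in the vehicle pair, and from 677 to 11021 and 441 to 6986 in the nanoceria pair. No marker on these lists was at 0 in every library. The part of the cell makeup, or of lens RNA, in the changes of the members was not tested.

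**Figure D5:**
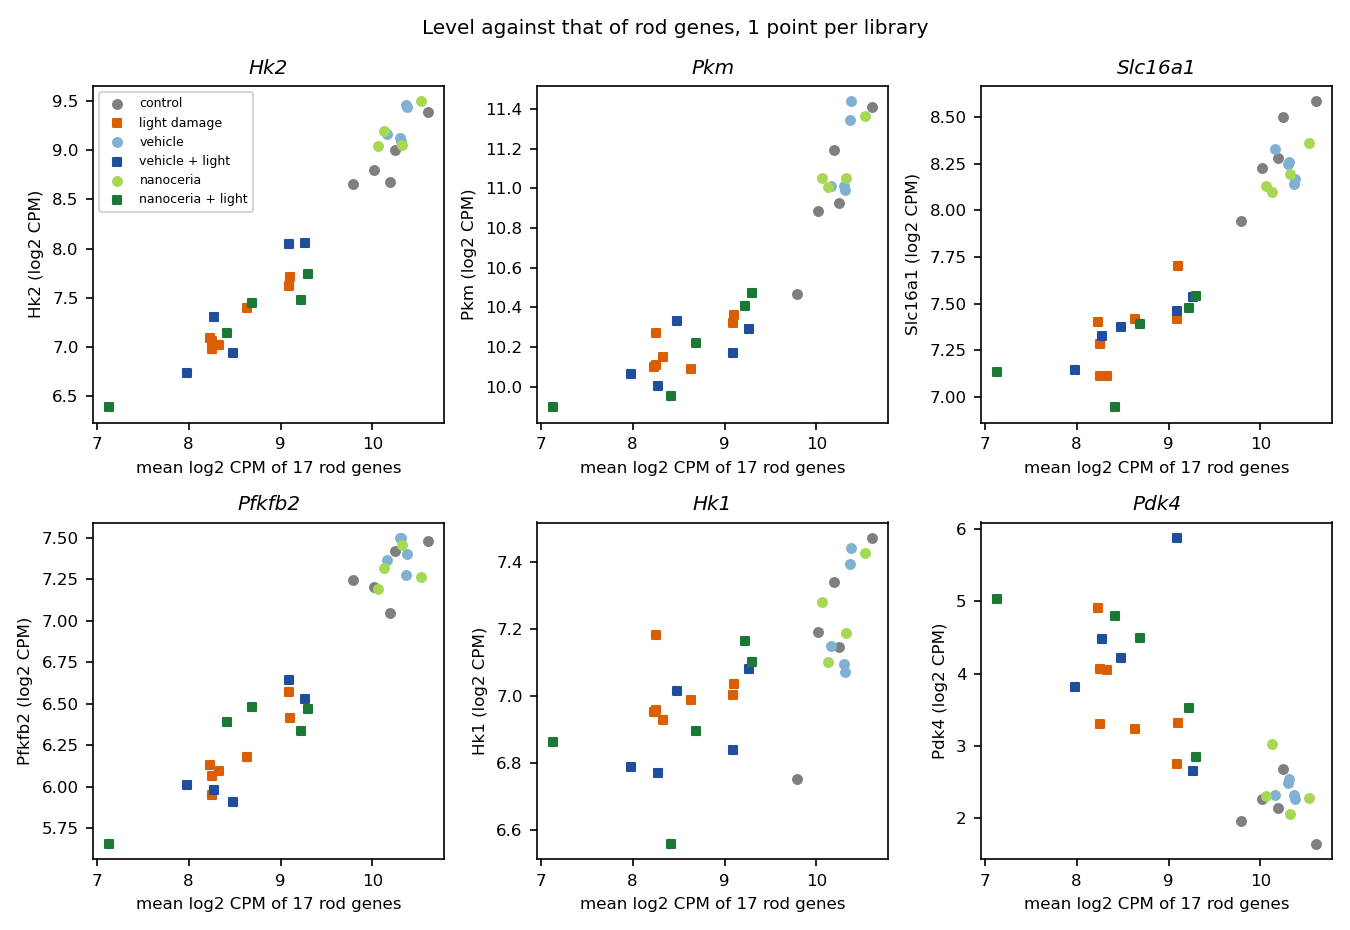
Log2 CPM of Hk2, Pkm, Slc16a1, Pfkfb2, Hk1 and Pdk4 against the mean log2 CPM of 17 rod genes, 1 point per library, coloured by group. Libraries with light lie at 7.14 to 9.30 on the rod axis and those without at 9.79 to 10.60.

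Genes of neighbouring pathways were read from lists, and the shares of all genes called given above apply to them too. Of 8 genes of the shuttles that carry reducing equivalents into the mitochondrion, 5, 3 and 2 fell without injection, after vehicle and after nanoceria, and none rose. Among them the cytosolic aspartate aminotransferase Got1 fell by 35.2%, 33.5% and 30.9% (adjusted p 0.00195, 0.0097 and 0.0307). Of 7 partners of the pyruvate dehydrogenase complex, 2, 1 and 1 fell. Pdp2, a phosphatase that switches the complex on, was at log2 -0.54 ± 0.07, -0.51 ± 0.08 and -0.29 ± 0.08 (SE; adjusted p 3.85e-06, 4.31e-05 and 0.0211). In the citrate cycle, 1 of 14 genes fell without injection, Idh3a at log2 -0.27 (edgeR adjusted p = 0.00587). None passed in the injected comparisons, where 0 and 0 had an unadjusted p under 0.05, beside 28.3% and 26.1% of all genes.

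Of 7 pentose phosphate genes, Rpia rose and Rpe fell without injection (log2 0.37 and -0.21, edgeR adjusted p 0.0451 and 0.00538). None passed after either injection, where 1 gene each had an unadjusted p under 0.05, beside 28.3% and 26.1% of all genes. Of 15 glycogen genes, 4, 0 and 1 fell. Of 23 other genes of glucose entry, glycolytic isoforms and glucose synthesis, 3, 4 and 2 rose and 2, 1 and 0 fell. The germ-cell lactate dehydrogenase Ldhc rose by 2.76, 1.80 and 1.97 on the log2 scale (adjusted p 4.94e-06, 0.00101 and 0.00128). Of 19 hypoxia factor genes and targets outside the members, 1, 2 and 1 rose and 3, 3 and 2 fell. Adm, the vasodilator peptide gene induced by low oxygen, was at log2 1.46, 0.98 and 0.47 (adjusted p 6.77e-06, 0.00178 and 0.191), and Ddit4, an inhibitor of growth signalling, at -0.49, -0.64 and -0.54 (adjusted p 0.000486, 8.84e-05 and 0.00141). Of 12 genes of glucose sensing and metabolic transcription, 2 rose in each light comparison. They were the fatty acid receptor Ppard (log2 0.79, 0.75 and 0.78, adjusted p 1.02e-05, 7.12e-05 and 0.000131) and the growth regulator Myc (log2 1.38, 1.72 and 1.42, adjusted p 0.00115, 0.000313 and 0.00519).

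Injection without light was compared next. Vehicle against control gave no call among the members by edgeR (0.0221% of all genes were called), with 3 at an unadjusted p under 0.05 (Ldhb, Pdk1 and Mpc1, where 8.08% of all genes were under it), 0 by DESeq2 (0.287% of all genes) and 7 by limma-voom (12.2% of all genes). The log2 differences ran from -0.30 to 0.33. Nanoceria against control gave 1 call, Ldhb (2.46% of all genes), which was at log2 -0.50 ± 0.13 (SE, adjusted p = 0.0429) with no overlap of the groups (3.02% of all genes were apart and lower). That call was lost in 13 of 18 alternatives, among them without any 1 of the 5 control libraries and without nanoceria 1, 2 or 3, with an adjusted p of up to 0.141. Pfkfb3 was apart in the other direction, at 45.3 to 50.4 CPM after nanoceria and 33.3 to 44.1 in control (4.24% of all genes were apart and higher), and did not pass (log2 0.27 ± 0.11, SE, adjusted p = 0.222). In the same comparison 7 of 9 microglia and macrophage markers rose, and their part in the value of Ldhb was not tested. Nanoceria and control also differ by the injection itself. Ldhb averaged 297 CPM in control, 241 after vehicle and 210 after nanoceria.

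Nanoceria against vehicle gave no call among the members by edgeR and none among all genes (0%), with 0 members at an unadjusted p under 0.05 (5.64% of all genes). DESeq2 called 0 (0.221% of all genes) and limma-voom 2, Slc16a3 at log2 0.30 and Pdk1 at 0.27, where it called 8.21% of all genes. Member differences ran from -0.20 to 0.39. Pfkp was the 1 member whose groups were apart, at 147 to 179 CPM after nanoceria and 181 to 196 after vehicle (1.28% of all genes were apart and lower), and it did not pass (log2 -0.19 ± 0.11, SE, edgeR adjusted p of 0.9997). The ratio of Ldhb to Ldha was lower after nanoceria than after vehicle, -2.62 to -2.41 against -2.40 to -2.19, a difference of -0.24 (exact permutation test, adjusted p = 0.0287). If the numbers shared by these 2 groups are taken to pair their libraries, the difference over the 3 pairs was -0.25. The exact paired test cannot give a p below 0.25 there. The call on this ratio was also lost with the near-identical vehicle libraries averaged (exact permutation test, adjusted p = 0.0844) and without any 1 library of either group. With those libraries averaged or a vehicle library left out, the smallest unadjusted p possible was 0.0286. With a nanoceria library left out it was 0.0179. These losses therefore cannot be told from the limit of the test.

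Under light, the injected eyes were compared with the uninjected and with each other. Comparisons that share a light group are not independent of each other. Vehicle plus light against light damage gave no call among the members by edgeR (0.122% of all genes), with 1 at an unadjusted p under 0.05 (8.19% of all genes), and 1 call each by DESeq2 (0.481% of all genes) and limma-voom (1.26%). In each case it was Tigar, at log2 -0.37 ± 0.09 by edgeR (SE, adjusted p = 0.0793), with no overlap of the groups (0.486% of all genes were apart and lower). Nanoceria plus light against light damage gave 1 call (0.0608% of all genes), again Tigar, lower at -0.43 ± 0.09 (adjusted p = 0.0388) and apart (0.282% of all genes). That call was lost in 13 of 21 alternatives, among them without any of light damage 1, 2, 4, 5, 6 or 7 or nanoceria plus light 1, 2 or 4, with an adjusted p of up to 0.295.

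Nanoceria plus light against vehicle plus light was the comparison of the particle under light. It gave no call among the members by edgeR, DESeq2 or limma-voom (0% of all genes by edgeR). By edgeR 0 members had an unadjusted p under 0.05, where 1.42% of all genes were under it. The log2 differences ran from -0.24 to 0.24. Hk2 differed by -0.21, with a 95% interval from its SE of -0.67 to 0.25, and Slc16a1 by -0.06 (-0.29 to 0.17). Pkm differed by 0.03 (-0.24 to 0.30) and Pdk4 by -0.24 (-1.09 to 0.62), so differences of these sizes could not be told from none. The light response after nanoceria against that after vehicle gave no member call by edgeR (0% of all genes), DESeq2 or limma-voom. There 0 members had an unadjusted edgeR p under 0.05 (2.29% of all genes). The light response after vehicle against that without injection gave no member call by the same 3 tools (0.0442% of all genes by edgeR). There 1 member, Tigar, had an unadjusted edgeR p under 0.05 (5.85% of all genes).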

How the data were processed

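Retinal polyA RNA was sequenced, and the authors deposited 1 table of raw read counts per gene. Per the submitters' processing notes the tools were Trimmomatic 0.39, STAR 2.7.9a, featureCounts (Subread 2.0.1), DESeq2 1.30.1 and R 4.0 with build rn6. The sources used here give neither the strand setting nor the annotation release. Samples were grouped by their treatment labels.

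Counts were tested in R 4.3.3 with edgeR 4.0.16 (TMM scaling, filterByExpr with minimum count 10 and minimum total 15, quasi-likelihood fit over all 31 libraries with 1 coefficient per group). P-values were Benjamini-Hochberg adjusted over the 18094 genes that passed, in 9 comparisons and 2 interactions. DESeq2 1.42.0 and limma 3.58.1 (voom with quality weights) were alternatives, beside other scalings, no filter, only the groups compared, a replicate block, a term for Y-linked transcripts, near-identical pairs summed and each library left out. Log2 ratios of 2 genes in a library used CPM plus 0.5.

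The rule that picked the members used no measured value, but members and lists were both chosen with earlier results of these data known. Values are given for members called in all 3 light comparisons, members of a ratio called in all 3, and members called without a light difference. For these, light damage is given as lowest, median and highest, and the other groups library by library. The pairing check was a correlation of same-numbered libraries' deviations from their group means. It was over 0.1 in every pair only for nanoceria against vehicle (0.24 to 0.36, 3 pairs). There 2 libraries correlated best with their own number. The labels name no pairs, so pairing was used only in alternatives and the main tests left it out.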

Additional observations from a re-analysis of the deposited data

Results flagged for a closer look

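In 216 sets of values (36 members in 6 groups of 4 to 7 libraries), 17 had a highest or lowest library set apart from the rest by a gap that is large for the range of the group, where about 10.8 would be flagged by chance. Light damage 1, the library with the lowest total count, held 3 of them: Aldoa at 1678 CPM (the other 6 libraries 1231 to 1333), Tigar at 27.2 CPM (22.7 to 24.5) and Slc16a7 at 4.01 CPM (5.96 to 6.99). In the same group Hk1 was highest in light damage 6 at 145 CPM (122 to 131) and Pdk4 in light damage 3 at 30.1 CPM (6.72 to 16.7).

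Nanoceria 5 was the highest of its group for Pkm at 2633 CPM (2059 to 2124) and for Pgam1 at 699.6 CPM (593 to 606), and nanoceria 2 was the lowest for Pfkm at 184 CPM (223 to 230). Nanoceria plus light 1 was the lowest for Slc2a3 at 27.0 CPM (48.02 to 51.01) and the highest for Pfkm at 227 CPM (184 to 189). Nanoceria plus light 4 was the lowest for Pfkfb2 at 50.5 CPM (81.0 to 89.3), and nanoceria plus light 2 was the highest for Bsg at 824 CPM (664 to 708). Vehicle plus light 1 was the lowest for Ldhb at 169 CPM (237 to 262) and vehicle plus light 4 the highest for Pfkfb4 at 19.1 CPM (13.2 to 14.3). Vehicle 1 was the highest for Tigar at 27.8 CPM (22.7 to 24.2). Control 5 was the lowest for Pdk1 at 21.0 CPM (24.1 to 25.4) and control 1 for Pdha1 at 161 CPM (195 to 200.3).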

How the results depend on the processing

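Under the alternatives run, no called result changed direction. The count of members called in light damage against control was 14 to 20 with each library left out (19% to 23.1% of all genes). In vehicle plus light against vehicle it was 13 to 16, beside 16.8% of all genes for its count of 15 with every library. In nanoceria plus light against nanoceria it was 6 to 11 (9.23% to 16.9% of all genes), with 6 without nanoceria 5, nanoceria plus light 1 or nanoceria plus light 4. Nanoceria plus light against nanoceria also gave 6 with only its 2 groups fitted (6.35% of all genes called) and 7 by library size alone (11.9%). It gave 14 with DESeq2 size factors (13.4%), 15 by DESeq2 (16.2%) and 14 by limma-voom (20%), beside 13.9% of all genes for its count of 10. Nanoceria against control gave 0 with DESeq2 size factors, library size alone, no filter, the replicate block or the Y-linked term (1.02% to 2.46% of all genes). It gave 4 by limma-voom (7.05% of all genes), and 0 to 1 with a library left out (1.12% to 2.37%). Nanoceria plus light against light damage gave 0 with library size alone, no filter, only its groups or the pairs summed (0.0285% to 0.0442% of all genes). It gave 0 to 1 with a library left out (0.0277% to 0.26%). Vehicle plus light against light damage gave 1 with only its groups (0.102% of all genes), by DESeq2 and by limma-voom. By limma-voom vehicle against control gave 7 (12.2% of all genes) and nanoceria against vehicle 2 (8.21%). With the replicate block the 3 light comparisons gave 14, 15 and 7 members (20.6%, 15.3% and 12.6% of all genes). The lowest correlation of a same-numbered pair in these comparisons was -0.20, -0.22 and -0.10, under the 0.1 asked of every pair. Those numbers were therefore not taken to pair the samples. Libraries correlated best with their own number in 1 of 5, 1 of 4 and 3 of 4 pairs. The count of ratios called was 7 to 8 without injection, 4 to 8 after vehicle and 0 to 0 after nanoceria and for nanoceria against vehicle with a library left out, designs whose smallest p is as high as 0.0286. With near-identical pairs averaged it was 4 after vehicle, 3 after nanoceria and 0 for nanoceria against vehicle, whose smallest p was then 0.0286. With pairing as a replicate block it was 0 in these comparisons, where the smallest p is 0.0625 to 0.25 and no adjusted call is possible. At these depths every member passed the filter, and the 4 to 7 libraries per group limit what could be called.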
